A study of Mus musculus with 12 samples.

Results

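The comparison described here sets all arrays that carry the TTP label against all arrays that do not, over both Myc backgrounds. RNA of B220+ bone marrow cells from mice aged 4 to 6 weeks, 94% C57BL/6 by strain, was hybridised to 12 Affymetrix MOE430 2.0 arrays, 3 in each of 4 groups. The arrays with the label were 3 of Eµ-TTP-1 transgenic mice (TTP) and 3 of precancerous Eµ-Myc;Eµ-TTP-1 transgenic mice (Myc TTP). Those without it were 3 of wild type mice and 3 of precancerous Eµ-Myc transgenic mice (Myc), all from litters of one cross. All 12 arrays of the series therefore entered, 6 on each side, and the Myc label was carried as a covariate in an additive model. The Eµ enhancer of the immunoglobulin heavy chain locus drives both transgenes and is active in the B lineage. The labels call the arrays of a group biological replicates and do not say whether animals were pooled. Of 18194 genes with a probe set of their own, 10287 were above log2 4 on at least 3 arrays and were tested, and 7907 were not.

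Tristetraprolin (TTP), the product of Zfp36, is a zinc finger protein that binds AU-rich elements in the ends of mRNAs and recruits the deadenylation and decapping machinery, so that the bound mRNA decays. Its best known targets encode cytokines such as TNF and short-lived growth regulators. Zfp36l1 and Zfp36l2, its paralogs, have the same biochemical activity and are needed in early B-cell development. B220 (CD45R) is a surface form of the phosphatase CD45 on B-lineage cells from the pro-B stage onward, and is also found on plasmacytoid dendritic cells and some natural killer cells.

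The label of some arrays was at odds with their Myc signal, and this touches every value below. On the log2 scale Myc, each value standing for arrays 1, 2 and 3 in turn, read 9.65, 9.68 and 12.65 in wild type, 10.05, 10.39 and 13.47 in TTP, 13.71, 13.92 and 12.99 in Myc, and 11.82, 12.73 and 13.37 in Myc TTP. The arrays labelled wild type 3 and TTP 3 thus read like those with the Myc label, and group names below are those of the labels. Xist, transcribed from the inactive X of females, and Y-linked genes were read together on all 4 arrays numbered 3. Xist was at log2 8.14 on wild type 3, 11.75 on TTP 3, 13.68 on Myc 3 and 8.51 on Myc TTP 3, and the Y-linked gene Eif2s3y at 11.29, 10.41, 5.05 and 10.70. Of the 8 other arrays, Myc 1 had Eif2s3y (9.72) without Xist (1.86), and 7 had Xist with Eif2s3y at 3.16 or below. The array medians of the tested genes ran from 8.93 to 9.38. The 3 Myc TTP arrays lay at 9.10 to 9.38, all above the 3 Myc arrays at 8.96 to 8.98. The B-lineage marker Cd79a, a receptor subunit, was present on all arrays at log2 14.03 to 15.06. Ptprc, which encodes every form of CD45 and not B220 alone, was at 13.17 to 14.48. The neutrophil gene S100a8 was present as well, at 11.98 to 16.04, so the selected cells were not B cells alone.

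Zfp36 itself was not higher on the arrays with the TTP label. It read 10.70, 9.80 and 9.84 in wild type, 9.88, 9.89 and 9.78 in TTP, 9.28, 9.34 and 9.997 in Myc, and 7.47, 8.62 and 9.18 in Myc TTP. All 3 Myc TTP arrays lay below all 3 Myc arrays, while TTP and wild type arrays overlapped. The main effect was -0.69 ± 0.29 (SE; limma, unadjusted p = 0.0339, adjusted p = 0.890). Zfp36 was read by 1 probe set, and whether that lies in the part of the mRNA carried by the transgene was not known here, so the value does not check the TTP labels. Zfp36l1 differed by -0.34 ± 0.20 and Zfp36l2 by -0.34 ± 0.23, and neither had an unadjusted p under 0.05 (0.118 and 0.151). Myc mRNA differed by -0.13 ± 0.67, with a 95% interval from -1.57 to 1.32, so these arrays did not resolve a difference of 1 log2 unit in Myc. Its difference was 0.65 within the background without the Myc label and -0.90 within that with it.

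No gene passed the test for a difference with the TTP label over both backgrounds. Limma called 0 of 10287 genes at an adjusted p under 0.05 (0%), and the smallest adjusted p was 0.890. At an unadjusted p under 0.05 there were 369 genes, 3.59% of those tested, of which 290 (2.82%) were higher and 79 (0.768%) lower with the label. With every array set to a common median the same count was 165 higher (1.60%) and 256 lower (2.49%), so the excess of higher genes depended on the scaling. What set the array levels apart was not tested. Over all genes the median difference was 0.10, and a common median shifted it by 0.10, to near 0. Of the 10287 differences 7754 were positive and 2533 negative. The middle of the distribution was narrow: the 5th percentile of the differences was -0.21 and the 95th was 0.44. A difference beyond 1 log2 unit was measured for 68 genes, 55 higher and 13 lower.

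The precision behind these differences was moderate. The median SE was 0.17 log2 units, and the median 95% interval reached 0.37 to either side of the estimate, with 0.28 and 0.51 as quartiles. In a gene of median precision, a measured difference under about 0.37 log2 units therefore did not reach an unadjusted p under 0.05 in limma. Genes with a smaller SE reached it at smaller differences. The lowest bin of p-values, from 0 to 0.05, held 369 genes where a uniform spread would put 514. The count depended on single arrays: it was 1270 without wild type 3 and 1476 without TTP 3, and 237, 216, 168, 172 and 194 without wild type 1, Myc 1, Myc 2, Myc TTP 1 and Myc TTP 2.

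**Figure D1:**
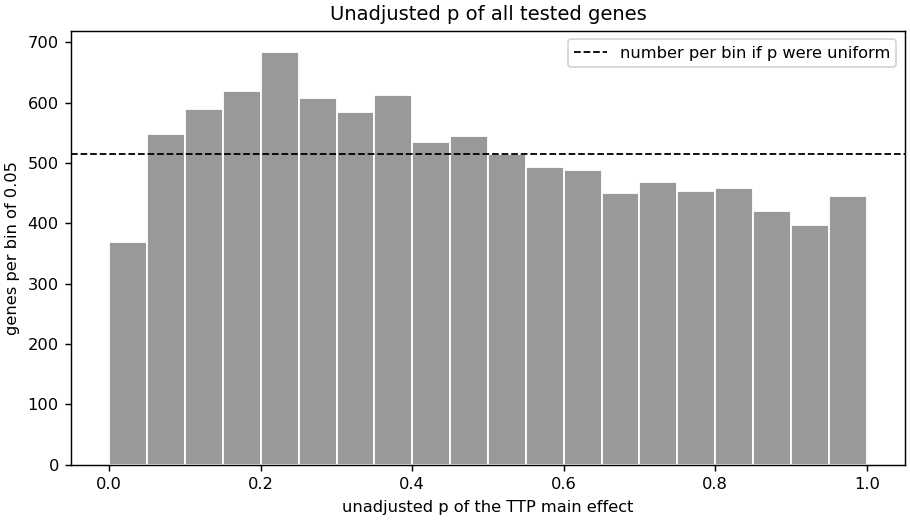
Histogram of the unadjusted p of the TTP main effect for all 10287 tested genes, in 20 bins of width 0.05 on the horizontal axis, with the number of genes on the vertical axis and a dashed line at the 514 genes per bin of a uniform spread. The first bin, with 369 genes, is the lowest, and the tallest holds 684.

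The results turned most on 2 genes: Pkm, with the largest difference among the genes that were higher on every TTP-labelled array, and Jchain, the gene with the largest difference of all. Pkm encodes the muscle-type pyruvate kinase, which makes pyruvate and ATP in the last step of glycolysis and is spliced into the isoforms M1 and M2. Jchain encodes the joining chain that links IgM and IgA into polymers in antibody-secreting cells. The 250 bases before their annotated starts, from RefSeq on assembly GRCm38.p6, are printed to show how unlike these 2 promoters are. That of Pkm is chr9:59656326-59656575 on the + strand, upstream of the farther of 2 starts in the table, with 66.4% G and C, and that of Jchain is chr5:88527898-88528147 on the - strand, with 42.0%. Capitals mark the single match to the GC box GGGCGG, searched on both strands, which 32.7% of the 32851 promoter windows hold. Neither window holds the E-box CACGTG (6.02% of windows), the letters that Myc with Max binds, or the octamer ATGCAAAT (1.60%), the letters that Oct factors bind in immunoglobulin promoters.
Pkm: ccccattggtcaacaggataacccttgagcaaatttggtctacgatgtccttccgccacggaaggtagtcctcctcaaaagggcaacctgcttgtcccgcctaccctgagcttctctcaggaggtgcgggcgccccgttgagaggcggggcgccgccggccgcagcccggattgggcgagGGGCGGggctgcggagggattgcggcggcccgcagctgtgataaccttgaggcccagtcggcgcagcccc
Jchain: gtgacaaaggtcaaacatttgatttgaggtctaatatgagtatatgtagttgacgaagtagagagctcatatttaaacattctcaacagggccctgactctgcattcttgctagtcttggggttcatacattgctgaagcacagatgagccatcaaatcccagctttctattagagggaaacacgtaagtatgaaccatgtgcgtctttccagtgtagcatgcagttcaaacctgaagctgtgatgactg

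Pkm was higher on all 6 arrays with the TTP label than on all 6 without it. Without Myc it read 10.66, 11.10 and 12.75 in wild type against 13.00, 13.00 and 12.83 in TTP. With Myc it read 12.24, 11.86 and 12.30 against 13.10, 13.17 and 13.18. The 6 labelled arrays spanned less than the 6 others, among which wild type 1 and 2 were lowest and wild type 3 came close to the TTP arrays. The main effect was 1.23 ± 0.28 log2 units (95% interval 0.63 to 1.82), a 2.34-fold difference, which did not pass in limma over all genes (unadjusted p = 0.000715, adjusted p = 0.890). It was 1.44 ± 0.40 without Myc and 1.01 ± 0.40 with Myc, and the test of the difference between backgrounds gave -0.43 (adjusted p = 0.709). Leaving out wild type 3 and TTP 3 gave 1.46, and leaving out all 4 arrays numbered 3 gave 1.60 (limma adjusted p = 0.105 and 0.0673). Within the background without Myc, leaving out wild type 3 changed the call: Pkm rose there by 2.06 log2 units (limma adjusted p = 0.00157). Pkm was read by 1 probe set, so M1 and M2 were not told apart.

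Jchain was lower with the label in both backgrounds. Wild type arrays read 11.23, 10.50 and 9.95 against 6.76, 8.50 and 7.64 in TTP. With Myc it read 5.53, 6.85 and 8.28 against 4.85, 5.34 and 5.25 with both transgenes. Within each background the 3 labelled arrays lay below the 3 others, though TTP arrays 2 and 3 were above Myc arrays 1 and 2. The main effect was -2.33 ± 0.45 (95% interval -3.32 to -1.35), 5.04-fold lower, with the smallest unadjusted p of the whole table (0.000219) and a limma adjusted p of 0.890. The difference was -2.92 ± 0.63 without Myc and -1.74 ± 0.63 with Myc, and it kept its size without wild type 3 and TTP 3 (-2.34). In bulk RNA a lower share of antibody-secreting cells and less Jchain mRNA per cell cannot be told apart. Of the 10 other plasma cell genes tested none had an unadjusted p under 0.05, and their median difference was 0.08 against 0.10 for all genes. Their mean level, Jchain left out, was 9.40, 9.49 and 9.36 in wild type, 9.36, 9.50 and 8.92 in TTP, 8.68, 8.52 and 8.97 in Myc, and 9.04, 8.89 and 9.01 in Myc TTP, and the groups overlapped in both backgrounds.

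**Figure D2:**
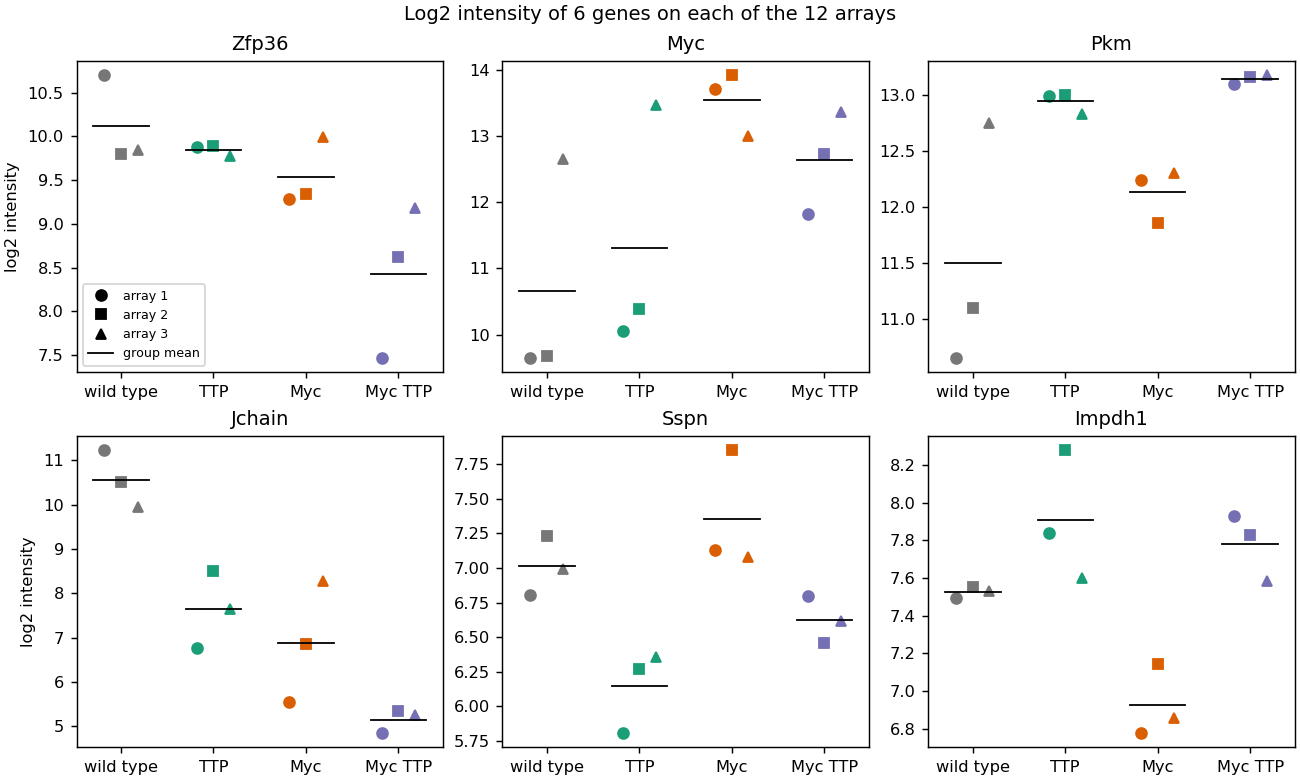
Log2 intensity (vertical axis) of Zfp36, Myc, Pkm, Jchain, Sspn and Impdh1 on each of the 12 arrays, by group on the horizontal axis, with circles, squares and triangles for arrays 1, 2 and 3 and a line for the group mean of 3 arrays. Pkm and Impdh1 are higher and Sspn lower on all labelled arrays, Jchain is lower within each background, and the Myc triangles of wild type 3 (12.65) and TTP 3 (13.47) lie with the Myc groups.

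None of the other 9 genes with the smallest p among the higher ones passed. Rapgef5, an exchange factor for Rap GTPases, read 7.42, 7.88 and 7.70 on wild type, 8.15, 8.20 and 7.99 on TTP, 7.92, 7.92 and 7.68 on Myc, and 8.54, 8.62 and 8.39 on Myc TTP arrays. Each labelled array was above each unlabelled one, and the main effect was 0.56 ± 0.13 (limma unadjusted p = 0.000742), with both its probe sets positive. Impdh1, an IMP dehydrogenase of guanine nucleotide synthesis, read 7.49, 7.55 and 7.53 on wild type, 7.84, 8.28 and 7.60 on TTP, 6.78, 7.14 and 6.86 on Myc, and 7.93, 7.83 and 7.58 on Myc TTP arrays. Here too the 6 labelled arrays lay above the 6 others, by the least between Myc TTP 3 and wild type 2, and the main effect was 0.62 ± 0.16.

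For several others TTP 3 did not follow TTP 1 and 2. Enpep, the aminopeptidase known as the pre-B surface antigen BP-1, read 9.75, 9.91 and 9.98 on wild type, 10.84, 11.23 and 9.95 on TTP, 7.46, 7.77 and 9.43 on Myc, and 10.57, 10.49 and 9.67 on Myc TTP arrays. TTP 3 was level with the wild type arrays, and Myc 3 stood well above Myc 1 and 2. Its main effect was 1.41 ± 0.37, with 0.79 ± 0.48 without Myc and 2.02 ± 0.48 with Myc. Arpp21, a phosphoprotein regulated by cyclic AMP, had a like pattern. It read 7.18, 7.14 and 7.14 on wild type, 8.25, 8.31 and 6.94 on TTP, 4.77, 4.67 and 6.04 on Myc, and 7.92, 7.28 and 6.93 on Myc TTP arrays. The main effect was 1.45 ± 0.37, and its difference was 0.68 ± 0.44 without Myc and 2.22 ± 0.44 with Myc.

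Alad, an enzyme of heme synthesis, differed by 0.57 ± 0.14, and Slc43a1, a transporter of large neutral amino acids, by 0.75 ± 0.19. Slc43a1 read 7.85, 8.04 and 8.09 on wild type, 8.84, 8.90 and 8.02 on TTP, 7.38, 7.48 and 7.78 on Myc, and 8.77, 8.58 and 8.02 on Myc TTP arrays, so that only TTP 3 kept the groups from separating in both backgrounds. Armcx4, an armadillo repeat protein encoded on the X chromosome, differed by 0.87 ± 0.22. Acp6, a phosphatase of lysophosphatidic acid, differed by 0.63 ± 0.17, and by 0.23 ± 0.17 without Myc and 1.03 ± 0.17 with Myc. Bcl2l11, which encodes the apoptosis activator BIM, differed by 0.42 ± 0.12, with 4 of its 5 probe sets positive. All of these had a limma adjusted p of 0.890.

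Among the lower genes no other difference came near that of Jchain. Sspn encodes sarcospan, a membrane protein of the dystrophin complex, and read 6.81, 7.23 and 6.996 on wild type, 5.81, 6.27 and 6.36 on TTP, 7.13, 7.85 and 7.08 on Myc, and 6.80, 6.46 and 6.61 on Myc TTP arrays. All 6 labelled arrays lay below the 6 others, and the difference was -0.86 ± 0.25 without Myc and -0.73 ± 0.25 with Myc, for a main effect of -0.80 ± 0.18 (limma unadjusted p = 0.000665, adjusted p = 0.890). Diras2, a Ras-family GTPase, read 9.37, 9.50 and 9.77 on wild type, 8.74, 8.40 and 9.22 on TTP, 10.39, 10.43 and 9.69 on Myc, and 9.81, 9.55 and 9.77 on Myc TTP arrays. The groups were apart without Myc and overlapped with Myc through Myc 3, and the main effect was -0.61 ± 0.17.

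Ifi30, the lysosomal thiol reductase that unfolds proteins for MHC class II loading, read 12.29, 12.65 and 12.13 on wild type, 11.70, 12.04 and 11.53 on TTP, 11.66, 11.93 and 11.58 on Myc, and 11.56, 11.23 and 11.55 on Myc TTP arrays. Labelled arrays were below the others in each background, by a narrow margin with Myc, and the main effect was -0.44 ± 0.13. Fbxw2, a substrate adaptor of SCF ubiquitin ligases, differed by -0.48 ± 0.14 in its main probe set, but 5 of its 6 probe sets were positive, so its direction is uncertain. Stk38, an NDR-family kinase, differed by -0.26 ± 0.07 with all 3 probe sets negative, and Atp8b2, a phospholipid flippase, by -0.41 ± 0.12. Tnni2, the fast skeletal troponin I, differed by -0.84 ± 0.24, the membrane-anchored ubiquitin-like protein Ubl3 by -0.68 ± 0.20 and the phosphatase Cdc14b by -0.60 ± 0.20. Setting the arrays to a common median lowered every gene's difference by the same 0.10, which makes the higher genes' differences smaller and the lower genes' larger in size.

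Counting arrays rather than p-values, a description without a test, gave the same picture of few genes. With 3 arrays per group some genes separate by chance alone, and the counts below were not compared with that share. Labelled arrays lay above the others within each background for 13 genes (0.126% of those tested) and below for 8 (0.0778%), 21 (0.204%) in all. All 6 labelled arrays exceeded all 6 others for 7 genes (0.0680%), which were Pkm, Rapgef5, Impdh1, Rem2, Klhl25, Spg21 and Ttc9c, and lay below them for 3 (0.0292%), Sspn, Fbxw2 and Cmpk1. Rem2, a GTPase that inhibits calcium channels, differed by 0.82 ± 0.27. Klhl25, an adaptor of CUL3 ubiquitin ligases, differed by 0.24 ± 0.11, and Spg21, the endosomal protein maspardin, by 0.23 ± 0.09. Cmpk1, the kinase that phosphorylates UMP and CMP, differed by -0.29 ± 0.12, with TTP 2 at 12.33 below the 11 other arrays at 13.00 to 13.28. Htatsf1, a factor of transcription and splicing, was separated in each background at 0.27 ± 0.08, and so was Cdipt, the phosphatidylinositol synthase, at -0.20 ± 0.09. The opposite pattern was more frequent: 160 genes (1.56%) were lower on TTP than wild type and higher on Myc TTP than Myc arrays, and 1 (0.00972%), the mitochondrial gene ND5, was the other way round. At a common median these were 28 (0.272%) and 24 (0.233%) genes, beside 16 higher (0.156%) and 26 lower (0.253%) in both backgrounds. Of the 13 higher genes 4 stayed separated at a common median (Pkm, Rapgef5, Impdh1 and Rem2), and of the 8 lower ones 4 did (Jchain, Sspn, Ifi30 and Atp8b2). Klhl25, Spg21, Ttc9c, Htatsf1, Fbxw2, Cmpk1, Stk38 and Cdipt were among those that did not.

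The 2 backgrounds share no arrays, and their TTP differences were centred on different values. The median over all genes was -0.06 for TTP over wild type and 0.27 for Myc TTP over Myc. Limma called 0 of 10287 genes in each (0%), with 149 (1.45%) at an unadjusted p under 0.05 without Myc and 1966 (19.1%) with Myc. Across genes, which are not independent replicates, the differences had a Pearson correlation of 0.10 and a Spearman correlation of 0.05, and 39.4% of genes had the same sign, or 50.5% at a common median. Without wild type 3 and TTP 3 the Pearson correlation was 0.22 and 58.3% shared the sign. The test of the difference between backgrounds called 0 genes (smallest adjusted p = 0.358), with 1351 (13.1%) at an unadjusted p under 0.05.

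**Figure D3:**
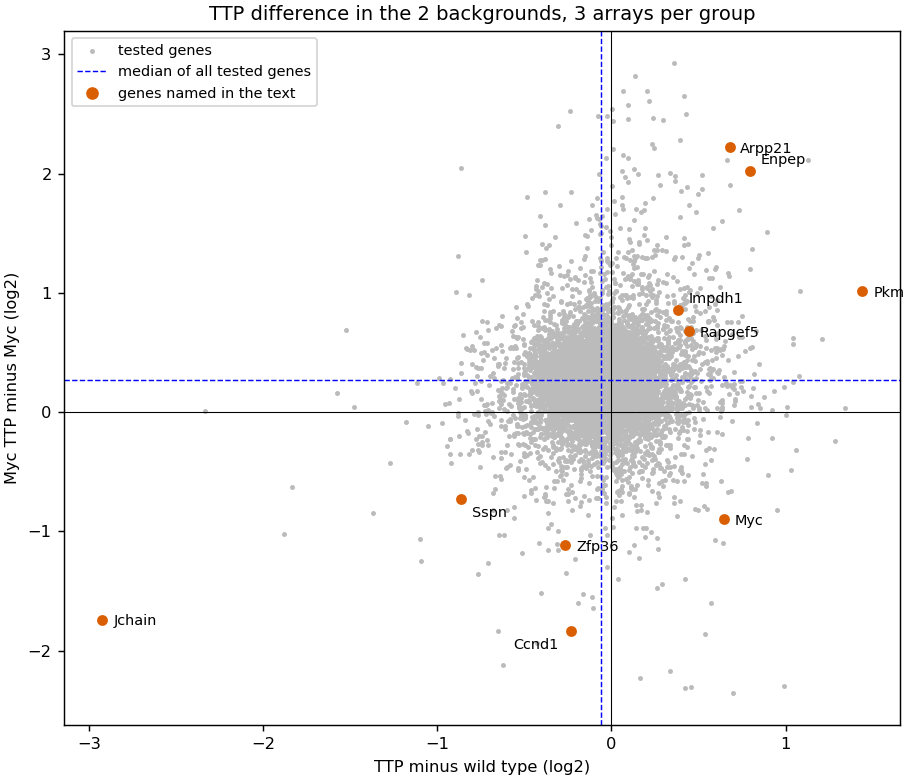
Log2 difference of TTP minus wild type (horizontal axis) against Myc TTP minus Myc (vertical axis) for the 10287 tested genes in grey, each difference between 2 means of 3 arrays, with named genes in orange and dashed lines at the medians of -0.06 and 0.27. Pkm lies high in both, Jchain low in both, and Arpp21 and Enpep are farther from 0 with Myc than without.

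The number of called genes differed between ways of treating the arrays that stood apart. Weighting each array by its fit gave TTP 3 the lowest weight (0.181) and wild type 3 the next (0.353), and limma then called 11 genes, 0.107% of those tested, with 2412 (23.4%) at an unadjusted p under 0.05. Alad, Slc43a1, Pkm, Arpp21, Armcx4, Enpep, Rapgef5, the endosomal protein gene Leprotl1 and the nucleobase transporter gene Slc43a3 rose, with adjusted p from 0.0347 to 0.0490, and Diras2 and Sspn fell (adjusted p = 0.0490 for both). Pkm was 1.51, Enpep 1.83 and Arpp21 1.77 log2 units higher there. These weights were estimated from the same values that were then tested. Without wild type 3 and TTP 3 limma called 0 genes, with 2066 (20.1%) at an unadjusted p under 0.05.

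Without all 4 arrays numbered 3, limma called 1 gene (0.00972%), with 2161 (21%) at an unadjusted p under 0.05. The called gene was Tspan33, a tetraspanin of erythroid and B cells. It read 8.70, 8.73 and 7.96 on wild type, 9.86, 10.38 and 7.65 on TTP, 6.59, 6.58 and 7.90 on Myc, and 8.02, 8.23 and 6.87 on Myc TTP arrays. Arrays 1 and 2 of each labelled group lay above those of their unlabelled group, and array 3 lay below, in both backgrounds. Tspan33 rose by 1.47 log2 units on arrays 1 and 2 (adjusted p = 0.0328), against 0.76 ± 0.44 over all 12.

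None of the reported targets of TTP passed. Of 34 listed genes 19 were tested, and their median difference was 0.08 against 0.10 for all genes. Of the 19, 11 were positive and 8 negative, beside 7754 and 2533 of all genes. At an unadjusted p under 0.05, 4 were lower (Ccnd1, Tnf, Plaur and Zfp36, which regulates its own mRNA), beside 0.768% of all genes, and 1, the cell cycle factor E2f1, was higher at 0.31 ± 0.14, beside 2.82%. At a common median 5 were lower and 0 higher, beside 2.49% and 1.60%. Ccnd1, which encodes cyclin D1, read 7.94, 8.23 and 7.89 on wild type, 7.47, 8.19 and 7.71 on TTP, 10.22, 9.48 and 8.25 on Myc, and 7.52, 7.39 and 7.54 on Myc TTP arrays. It was lower with the label in the Myc background, where Myc 3 was nearest to the Myc TTP arrays, and overlapped in the other. The main effect was -1.03 ± 0.35 (limma unadjusted p = 0.0121, adjusted p = 0.890), and all 3 probe sets were negative. The difference was -0.23 ± 0.40 without Myc and -1.83 ± 0.40 with Myc. Tnf read 4.95, 4.49 and 4.50 on wild type and 3.43, 5.10 and 3.36 on TTP arrays, and it was below log2 4 on all arrays with the Myc label. Its main effect of -0.68 ± 0.27 therefore rests on signal close to the floor. Plaur, the urokinase receptor, differed by -0.67 ± 0.28. Of 39 genes of the mRNA decay machinery 1 was higher at an unadjusted p under 0.05, beside 2.82% of all genes. It was Khsrp (0.20 ± 0.09), an AU-rich element binding protein, and the list's median was 0.10.

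Growth and metabolic lists had medians from 0.02 to 0.21, on either side of the 0.10 of all genes, and no member passed. Their members at an unadjusted p under 0.05, all higher, stand beside 2.82% of all genes. Over 18 glycolysis genes the median was 0.20, with Pkm and the phosphofructokinase gene Pfkm (0.44 ± 0.20) at an unadjusted p under 0.05. Over 25 genes of nucleotide and polyamine synthesis it was 0.21, with Impdh1 the one such gene. Sterol synthesis gave 0.02 over 18 genes, with farnesyl diphosphate synthase Fdps at 0.33 ± 0.14, and oxidative phosphorylation 0.13 over 30, with the complex I subunit Ndufv1 at 0.27 ± 0.12. Ribosome biogenesis gave 0.18 over 40 genes, cytosolic ribosomal proteins 0.05 over 22 and translation factors 0.12 over 23, with no member at an unadjusted p under 0.05. The MYC and MAX network gave 0.05 over 13, with Mxi1, an antagonist of MYC that pairs with MAX, at 0.31 ± 0.11.

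DNA replication genes held the most members with a low unadjusted p. Of 33 genes 31 were positive, beside 7754 of 10287 over all genes, and the median was 0.19. Higher at an unadjusted p under 0.05 were 8 (Cdt1, Prim1, Gins4, Lig1, Mcm2, Rfc1, Mcm4 and Mcm7), beside 2.82% of all genes. At a common median the list's median was 0.09, beside near 0 for all genes, as that scaling lowered every difference by 0.10. Of the 33 genes 1 was then higher at an unadjusted p under 0.05, beside 1.60% of all genes. Cdt1, which loads the MCM helicase, read 12.80, 12.76 and 12.78 on wild type, 12.90, 13.06 and 12.69 on TTP, 12.61, 12.79 and 12.64 on Myc, and 13.31, 13.08 and 13.04 on Myc TTP arrays. The labelled arrays were higher with Myc and overlapped the others without it, and the main effect was 0.28 ± 0.09. Mitosis genes had a median of 0.10 over 29, and the D and E cyclins with their inhibitors 0.06 over 18.

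Stress, death and signalling lists had medians between -0.12 and 0.13. Their members at an unadjusted p under 0.05 stand beside 2.82% higher and 0.768% lower over all genes. Among 13 BCL2 family genes Bcl2l11 and Bok (0.50 ± 0.22), both activators of apoptosis, were higher and Bmf, another activator, was lower (-1.17 ± 0.48) at an unadjusted p under 0.05. Among 21 p53 targets the death receptor Fas was higher (0.44 ± 0.18) and the ribonucleotide reductase subunit Rrm2b lower (-0.38 ± 0.14). Fas read 3.85 to 4.88 and Bok 3.83 to 5.59 over all arrays, so their differences rest on signal close to the floor. Over 20 genes of the unfolded protein response the median was 0.04, with the chaperone gene Dnajb9 at -0.50 ± 0.23. The 22 immediate early genes had a median of -0.12 and the 15 genes of NF-κB signalling 0.01. Over 25 interferon response genes the median was -0.45 without Myc and 0.36 with Myc, and -0.02 as a main effect. Oas2, an interferon-induced oligoadenylate synthetase, was the one member at an unadjusted p under 0.05 (-0.67 ± 0.30).

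Among B-lineage lists no gene passed, and the medians lay close to 0. The 25 pro-B and pre-B genes had a median of 0.09, with -0.13 without Myc and 0.47 with Myc. Dntt, the terminal transferase that adds N nucleotides to V(D)J junctions, differed by 1.46 ± 0.63. The ETS factor Erg differed by 1.39 ± 0.60, and Cnn3, a calponin, by -0.60 ± 0.23. Dntt read 11.64, 11.43 and 10.97 on wild type, 12.44, 12.59 and 10.28 on TTP, 7.24, 6.30 and 10.01 on Myc, and 10.89, 10.19 and 9.97 on Myc TTP arrays. As for Enpep, TTP 3 was not above the wild type arrays, and Myc 3 lay with the Myc TTP arrays. The pan-B list had a median of -0.07 over 17 genes, mature B genes -0.08 over 17 and B-cell receptor signalling 0.07 over 20. Klf2, a factor of lymphocyte quiescence and trafficking, differed by -0.39 ± 0.15, and Malt1, the paracaspase of antigen receptor signalling, by -0.36 ± 0.12. MHC class II genes had a median of 0.07 over 12.

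The largest medians of any list were those of granulocyte and erythroid genes, with no member called. The 19 granulocyte genes had a median of 1.05, with 0.05 without Myc and 2.13 with Myc. Positive were 18 of them, beside 7754 of 10287 over all genes. The mean level of the granulocyte genes was 11.53, 11.96 and 11.04 on wild type, 12.05, 12.37 and 10.50 on TTP, 5.99, 7.14 and 10.80 on Myc, and 10.49, 9.67 and 9.30 on Myc TTP arrays. Myc 1 and 2 were far below all other arrays, Myc 3 was above all Myc TTP arrays, and the groups overlapped in both backgrounds. Mpo, the myeloperoxidase of neutrophil granules, differed by 1.64 ± 0.98. The 14 erythroid genes had a median of 1.08, all positive, with 0.42 without Myc and 1.52 with Myc, and Alas2, the red cell form of aminolevulinate synthase, differed by 1.30 ± 0.64.

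Smaller lists of other blood cells held no called gene either. NK and cytotoxic genes had a median of 0.65 over 12, basophil and mast cell genes 0.57 over 5, megakaryocyte genes 0.43 over 5 and monocyte genes 0.28 over 16, none of them with a member at an unadjusted p under 0.05. Plasmacytoid dendritic cell genes had a median of 0.02 over 10, with -0.53 without Myc and 0.54 with Myc. Of 7 T-cell genes, 2 were higher at an unadjusted p under 0.05, beside 2.82% of all genes, namely Cd8a (0.73 ± 0.24) and the adaptor Lat (0.92 ± 0.36). The erythroid level was 9.24, 9.16 and 8.13 on wild type, 9.74, 10.23 and 7.81 on TTP, 5.13, 4.96 and 8.16 on Myc, and 8.05, 7.90 and 5.98 on Myc TTP arrays. Enpep, Arpp21, Alad, Slc43a1 and Tspan33 were low on Myc 1 and 2 and higher on TTP 1 and 2 than on TTP 3. That was also the order of the granulocyte and erythroid lists. The part of other cell types in the values of these genes, and in that of Pkm, was not tested. Pkm shared that order on the TTP and Myc arrays, with 13.00, 13.00 and 12.83 in TTP and 12.24, 11.86 and 12.30 in Myc, but its lowest values were those of wild type 1 and 2.

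**Figure D4:**
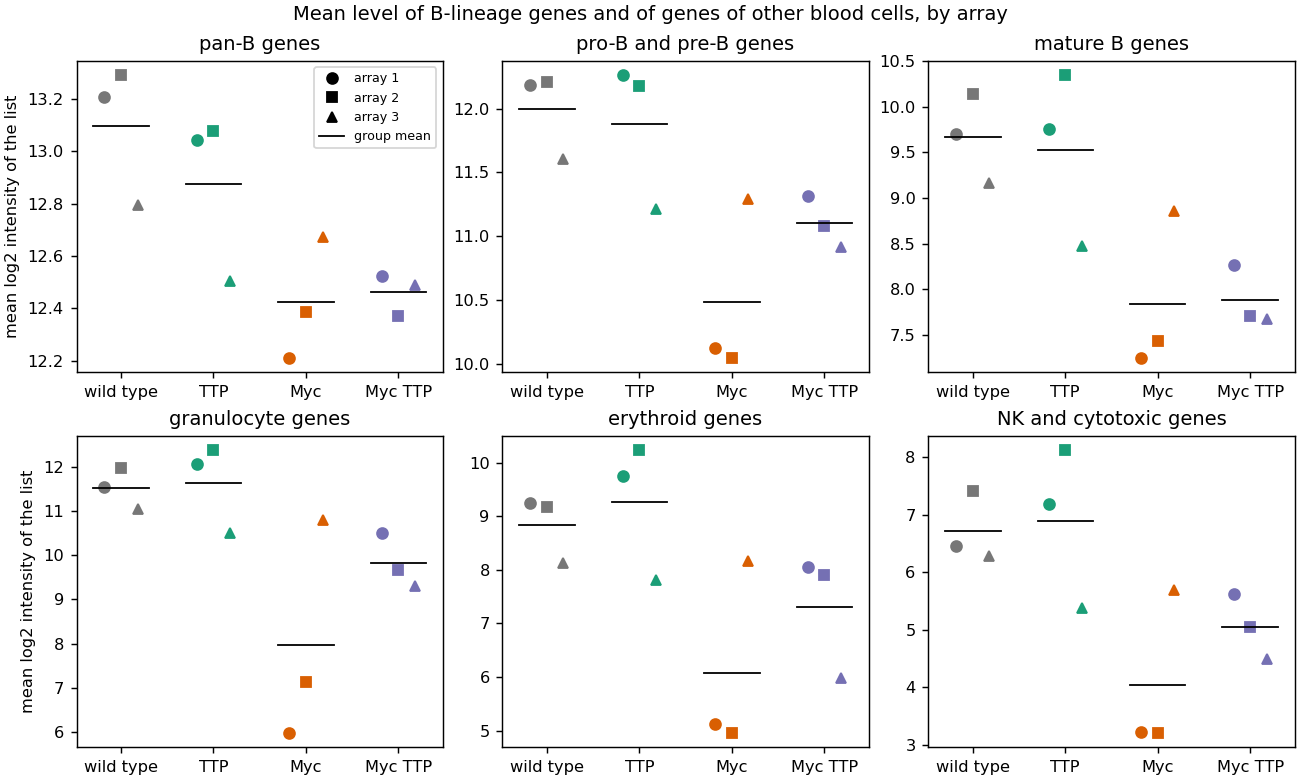
Mean log2 intensity of the tested genes of 6 lists (vertical axis) on each of the 12 arrays, by group on the horizontal axis, with circles, squares and triangles for arrays 1, 2 and 3 and a line for the group mean of 3 arrays. Granulocyte genes are at 5.99 and 7.14 on Myc 1 and 2 and at 9.30 or above on all other arrays, while pan-B genes stay between 12.21 and 13.29.

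**Figure D5:**
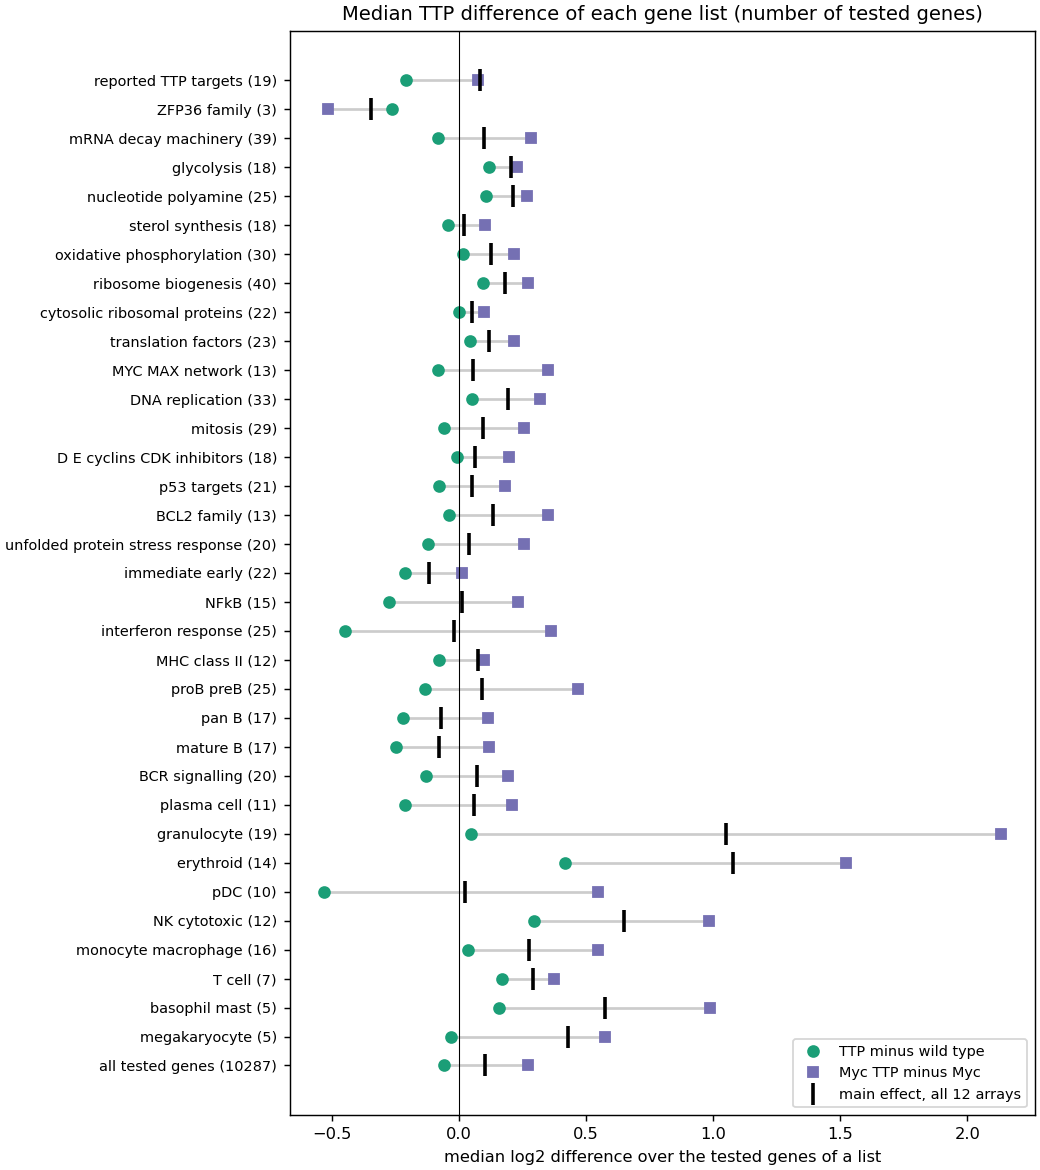
Median log2 TTP difference (horizontal axis) over the tested genes of each list, whose number is in brackets on the vertical axis, as a circle for TTP minus wild type, a square for Myc TTP minus Myc and a bar for the main effect over 12 arrays. Granulocyte and erythroid genes are farthest to the right at 1.05 and 1.08 as main effects, most other lists lie near the 0.10 of all genes, and in most lists the square is to the right of the circle.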

How the data were processed

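Total RNA of 12 samples was hybridised to Affymetrix MOE430 2.0 arrays after selection of B220+ cells on magnetic beads, per the labels' protocols. The authors deposited 1 intensity per probe set on a linear scale, from 1.73 to 120125, made with GCRMA per the submitters' processing notes (version not given in the sources used here). GCRMA corrects background and normalizes between arrays, so a change in total RNA per cell cannot be seen. Log2 of the deposited intensity was taken with no pseudocount. The platform annotation gave 34958 of 45101 probe sets a single symbol, 932 several and 9211 none, and 34754 of the first were found in the RefSeq table of GRCm38.p6. The probe set with the highest mean stood for a gene.

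The tests used limma (version 3.58.1, R 4.3.3) with TTP label plus Myc label as terms, an intensity trend in eBayes and 9 residual degrees of freedom, two-sided, with Benjamini-Hochberg adjustment over all 10287 genes. All p-values are from limma. A gene was called at an adjusted p under 0.05. Differences within a background and their difference came from a fit with 4 group means. Errors are SE. The p-values measure the spread between these samples. The labels do not say how animals map to samples, and their number limits the precision.

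The members of the comparison and the 35 gene lists were chosen with earlier results of these data known. Named genes are the 10 with the smallest p in each direction, the 10 in each direction with the largest difference among those separated in both backgrounds, the 3 members of each list with the smallest p, and the ZFP36 family, Myc and Pkm. Antigen receptor genes and sex-linked genes were left out of the first pair of rules. Tspan33, Leprotl1, Slc43a3, Slc37a1, Fgd2 and ND5 were named after their values were seen, and so were single genes counted in a list. The text gives a part of these. Other filters, probe sets, scalings, models, blocks, weights and left-out arrays were tried.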

Additional observations from a re-analysis of the deposited data

How the results depend on the processing

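The count of 0 called genes held under each filter, probe set, scaling, pseudocount, variance model and threshold tried, and without any 1 array. It moved to 11 with array weights (9 higher, 2 lower) and to 1 higher without the 4 arrays numbered 3. Settings chosen after the data were seen gave 3 (Slc43a1 and Tspan33, 2 higher, and Diras2, 1 lower) at a common median without those 4 and 19 (8 higher, 11 lower) at a common median with weights. Genes at an unadjusted p under 0.05, 369 in the report, numbered 702 without a filter, 660 over all single-symbol probe sets, 746 over all probe sets, 2412 with weights, 215 without the Myc covariate, 583 with 4 group means, 149 and 1966 within the backgrounds, 168 to 1476 without 1 array, 2066 without wild type 3 and TTP 3 (1019 at a common median), 2161 without the 4 numbered 3 (1578 at a common median) and 1620 at a common median with weights. The replicate numbers did not pair the samples alike in both backgrounds. Same-numbered residuals correlated at 0.498, 0.664 and 0.821 between wild type and TTP but at -0.398, -0.0286 and -0.309 between Myc and Myc TTP. With the number as a replicate block 0 genes were called and 297 had an unadjusted p under 0.05, and with pairs within each background 0 and 520. Calls without Myc were 0 to 1 without 1 array, 1 without wild type 3 and TTP 3 and 1 without the 4, in each case Pkm. Calls with Myc were 0 to 28 without 1 array (28 without Myc 3), 1 without wild type 3 and TTP 3 (Slc37a1), 1 at a common median (Fgd2) and 1514 without the 4, where the interaction gave 235. Genes separated in both backgrounds, 21 in the report, were 46 without a filter, 42 at a common median, 50 after quantile normalization, 831 without wild type 3 and TTP 3, 1794 without the 4 and 24 to 413 without 1 array, and fewer arrays raise this count by construction. Among named genes Bcl2l11 (-0.33), Fbxw2 (0.15) and Ttc9c (-0.25) reversed with the probe set of largest SD. Myc read -0.69 to 0.23 without 1 array, 0.65 within the background without Myc and -0.90 within that with Myc. The cause was not tested.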

Other observations

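Of 3480 probe sets above the floor that name no single gene, limma called 0 for the TTP main effect, and 95 (2.73%) had an unadjusted p under 0.05.

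The first principal component of the tested genes held 73.5% of the variance and the second 8.78%. On the first the wild type arrays lay at -53.4, -64 and -7.65 and the TTP arrays at -58.2, -72.6 and 18.1. The Myc arrays lay at 76.2, 66.1 and 5.35 and the Myc TTP arrays at 11.6, 31.4 and 47.0. Labelled and unlabelled arrays overlapped there in both backgrounds. On the second the Myc TTP arrays lay at -43.2, -20.0 and -5.63 and the Myc arrays at 14.2, 11.9 and 18.01, while the TTP arrays at 1.48, -4.94 and 14.4 overlapped the wild type arrays at 16.01, 4.68 and -6.87.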
